A study of Mus musculus with 16 samples.

Results

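A set of 973 accessible regions, out of 136630 nuclear regions profiled by ATAC-seq, in which a transposase inserts adapters into open chromatin, was more accessible in liver and lung metastases than in pancreatic tumors. The regions were chosen from the measured values themselves. The mean normalised count of the 4 liver samples and that of the 6 lung samples each had to reach 40, each had to be at least 2 times the mean of the 6 pancreas samples, and the liver and lung means had to lie within 2-fold of each other. They are called the metastasis-shared peaks here. They were not closed in the pancreas. Their pancreas mean ranged from 7.84 to 999.7 with a median of 43.2, and in 514 of the 973 (52.8%) it was itself at 40 or above, so the peaks were lower in pancreatic tumors rather than absent from them.

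The cells were mKate2-positive tumor cells sorted from mice carrying KC-shSmad4 pancreatic cancers. Their lines came from primary tumors of a model with Ptf1a-Cre, which is active in the pancreatic lineage, a Cre-activated rtTA3 and mKate2 reporter at Rosa26, and a doxycycline-inducible, GFP-linked short hairpin RNA against Smad4 at Col1a1. All groups shared these alleles. Smad4 is suppressed while doxycycline is given (OFF) and the endogenous gene is expressed again once the drug stops (ON). Cells were transplanted into the pancreas (Panc), into the spleen for liver metastases (Liv) or into the tail vein for lung metastases (Lung) of female nude mice 6 to 8 weeks old, hosts that lack T cells but keep other leukocytes. Injections held 100000 cells for Panc, 400000 for Liv and 250000 for Lung. Doxycycline was withdrawn after 4 weeks of growth for Panc, 5 for Liv and 6 for Lung, and ON samples were taken 14 days later. Organ, injection route, number of cells and time of growth therefore cannot be told apart. Panc_OFF, Panc_ON, Lung_OFF and Lung_ON held 3 mice each, and Liv_OFF and Liv_ON held 2 each. Which cell line each mouse received is not given in the labels. Because the hairpin degrades the transcript, the Smad4 locus itself gives no check of the OFF and ON labels, which were read from the doxycycline status of each column.

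Accessible chromatin marks promoters and, more often, distal enhancers, at which transcription factors have displaced nucleosomes. SMAD4 is the common partner of the receptor-activated SMADs that carry TGF-beta and BMP signals to chromatin, where it binds short DNA words with partner factors. Its gene is among those most often lost in pancreatic ductal adenocarcinoma. AP-1, RUNX, KLF, FOX, GATA and HNF factors are families known to hold enhancers open in epithelial tumors and in endoderm-derived tissues.

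Depth in peaks ran from 23.0 M to 38.2 M reads per sample. 1 library stood apart over part of the genome: along distal chromosome 6 (the peaks within chr6:124004996-149586306), Lung_OFF_1 was raised as a block. The region held 35 of the metastasis-shared peaks among its 2411 peaks, and only 16 of those 35 still met the rule without Lung_OFF_1. Values without Lung_OFF_1 or without the region are given beside the named peaks that lie in it and the main counts. The tumor epithelium markers (Krt8, Krt19, Epcam and 12 others) were read at the peak nearest each start site, and all had one. Their summed normalised count was 31012 to 34428 in Panc_OFF, 22626 to 27254 in Panc_ON, 75295 to 76571 in Liv_OFF, 57277 to 70903 in Liv_ON, 31483 to 46417 in Lung_OFF and 37131 to 40602 in Lung_ON. Levels were uneven. Grhl2 averaged 29.1 in Panc_OFF, 40.2 in Panc_ON, 62.1 in Lung_OFF and 41 in Lung_ON, against 677 in Liv_OFF and 683 in Liv_ON.

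Sequences of 7 metastasis-shared peaks are shown because the results turn on them. Abca4 and Cpm name the peaks with the largest excess over the pancreas, Rassf6 and Bri3 those with the smallest p for a fall upon Smad4 restoration in the pancreas, Gm19935 and a peak on chromosome 2 those with the smallest p for a fall averaged over organs, and Tle4 the one with the smallest p for a rise. Each line is the central 200 bp on the plus strand of mm10, read from RefSeq GRCm38.p6, at chr3:122064746-122064945, chr10:117604110-117604309, chr5:90625524-90625723, chr5:144248031-144248230, chr2:137794910-137795109, chr8:90799434-90799633 and chr19:14664878-14665077 in the order printed. Capitals mark matches, on either strand, to the 18 short motif words that were searched.
Abca4: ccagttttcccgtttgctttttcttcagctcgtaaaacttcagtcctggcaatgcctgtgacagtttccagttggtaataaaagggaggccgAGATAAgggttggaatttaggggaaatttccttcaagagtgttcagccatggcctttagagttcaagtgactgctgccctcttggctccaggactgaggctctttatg
Cpm: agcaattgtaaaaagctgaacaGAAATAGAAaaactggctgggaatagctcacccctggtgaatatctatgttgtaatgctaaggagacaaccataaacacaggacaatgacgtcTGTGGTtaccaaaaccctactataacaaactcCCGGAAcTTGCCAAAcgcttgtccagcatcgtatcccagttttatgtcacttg
Rassf6: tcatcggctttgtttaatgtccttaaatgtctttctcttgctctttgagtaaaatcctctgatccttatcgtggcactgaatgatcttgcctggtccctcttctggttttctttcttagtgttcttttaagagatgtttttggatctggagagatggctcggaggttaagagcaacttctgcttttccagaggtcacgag
Bri3: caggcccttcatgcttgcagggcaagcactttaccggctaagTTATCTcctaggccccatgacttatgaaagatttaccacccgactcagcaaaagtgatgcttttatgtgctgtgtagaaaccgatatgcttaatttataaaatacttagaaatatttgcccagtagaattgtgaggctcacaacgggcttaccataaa
chromosome 2 peak: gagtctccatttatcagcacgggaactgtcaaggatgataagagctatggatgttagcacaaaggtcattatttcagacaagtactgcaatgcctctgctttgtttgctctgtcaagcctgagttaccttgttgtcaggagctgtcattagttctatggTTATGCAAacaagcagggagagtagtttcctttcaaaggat
Gm19935: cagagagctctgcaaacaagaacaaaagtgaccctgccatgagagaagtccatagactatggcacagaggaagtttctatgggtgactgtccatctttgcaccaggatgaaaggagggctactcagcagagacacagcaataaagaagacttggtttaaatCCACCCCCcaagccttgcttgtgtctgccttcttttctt
Tle4: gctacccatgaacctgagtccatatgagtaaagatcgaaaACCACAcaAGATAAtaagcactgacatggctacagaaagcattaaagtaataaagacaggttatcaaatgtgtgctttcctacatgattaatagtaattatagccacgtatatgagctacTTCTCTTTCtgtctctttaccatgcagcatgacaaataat
The Abca4 and Bri3 windows each held 1 GATA word (AGATAA, or TTATCT on the other strand), and the Rassf6 window held none of the 18. The Cpm window held RUNX (TGTGGT), ETS (CCGGAA), CEBP (TTGCNNAA) and IRF (GAAANNGAA) words. The Gm19935 window held a KLF/SP word (GGGNGTGG), the chromosome 2 window a CEBP word, and the Tle4 window RUNX, GATA and IRF words. A word match is a description of letters and not of a bound site.

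Levels of the metastasis-shared peaks are a description, since the organ means chose them. The median normalised count over the 973 peaks was 53.0, 45.6 and 45.4 in the 3 Panc_OFF samples and 28.4, 35.9 and 45.2 in the 3 Panc_ON samples. It was 155 and 146 in Liv_OFF and 104 and 148 in Liv_ON. It was 89.3, 123 and 109 in Lung_OFF and 80.9, 93.9 and 117 in Lung_ON. Over all nuclear peaks the same median lay between 48.9 and 59.3 in every sample. Liver samples were the higher of the 2 metastatic sites at 812 of the 973 peaks (83.5%). The median ratio to the pancreas mean was 3.10 for the liver and 2.29 for the lungs. Most peaks lay close to the limit: the smaller of the 2 ratios was under 2.5 at 714 peaks and at least 3 at 91. All 10 metastasis samples exceeded all 6 pancreas samples at 442 peaks (45.4%, against 2.46% of all nuclear peaks), from the same values that chose the peaks.

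**Figure D1:**
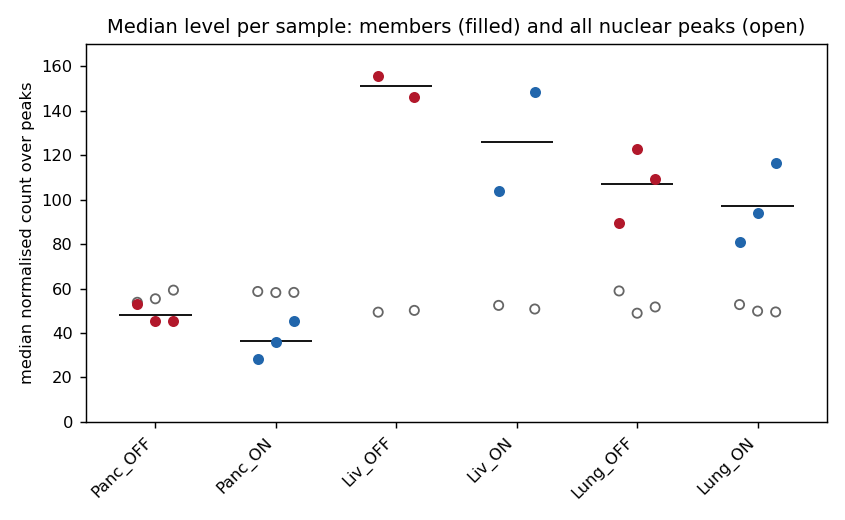
Each filled point is the median normalised count (y axis) over the 973 metastasis-shared peaks in 1 sample, by group (x axis; red, Smad4 off; blue, Smad4 restored; line, group mean), and each open point is the median over all nuclear peaks. Filled points lie between 28.4 and 53.0 in the pancreas and between 80.9 and 155 in the metastases, while open points stay between 48.9 and 59.3.

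At the edge of the rule, the members nearest to a 2-fold excess were an intronic peak nearest to Rusc2 (chr4:43386861-43387383), with means of 58.8 in Panc, 180 in Liv and 118 in Lung, and an intergenic peak nearest to Lrrc23 (chr6:124786580-124787463), with 111, 221 and 222. Just outside were an intergenic peak nearest to Cytl1 (chr5:37752435-37754069), with 167, 446 and 333, and a promoter peak nearest to Tff2 (chr17:31143803-31145157), with 214, 625 and 428. Values on the 2 sides of the limit were alike. The Lrrc23 peak lies in the raised block of chromosome 6, and without Lung_OFF_1 its Lung mean was 212 and its smaller ratio 1.92, so that it no longer met the rule.

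The 10 peaks with the largest excess were led by an intronic peak 20099 bp from the start of Abca4, a retinoid transporter of the ABC family (chr3:122064542-122065150). Its normalised counts were 12.0, 15.2 and 4.63 in Panc_OFF and 11.6, 11.1 and 7.66 in Panc_ON, 157 and 121 in Liv_OFF and 53.6 and 131 in Liv_ON, and 34.1, 134 and 110 in Lung_OFF and 39.3, 82.4 and 82.1 in Lung_ON. Every metastasis sample lay above every pancreas sample, and within the lungs the lowest values were those of Lung_OFF_1 and Lung_ON_1. An intergenic peak 24928 bp from the start of Cpm, a membrane carboxypeptidase (chr10:117603848-117604572), was at 6.83, 3.57 and 2.78 in Panc_OFF and at 8.0, 13.6 and 12.3 in Panc_ON. It was at 39.5 and 55.7 in Liv_OFF, 36.1 and 110 in Liv_ON, 111, 35.9 and 63.8 in Lung_OFF and 24.7, 22.0 and 81.2 in Lung_ON, again without overlap between pancreas and metastases. The smaller ratio to the pancreas was 7.76 for Abca4 and 7.20 for Cpm.

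Of the other 8, 3 lay in the raised block of chromosome 6. A peak nearest to C1s1, a protease of the complement cascade, read 548 in Lung_OFF_1 against 50.8 to 121 in the other 5 lung samples, and its ratio went from 5.47 to 2.78 without Lung_OFF_1. The peak nearest to Mansc4 went from 4.60 to 2.44, and the peak nearest to Plekhg6 from 4.49 to 4.00. The remaining 5 had ratios between 4.52 and 4.57 and were nearest to Cd200 (an immunoregulatory membrane protein), Iigp1 (an interferon-inducible GTPase), Trpm6 (a magnesium channel), E030025P04Rik and Map7 (a microtubule-associated protein). Without Lung_OFF_1 these 5 stayed between 4.02 and 5.03.

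By position, 431 metastasis-shared peaks (44.3%) were intronic, 373 (38.3%) intergenic, 88 (9.04%) in promoters (within 1000 bp of a transcript start) and 81 (8.32%) in exons. Among all nuclear peaks, promoters made up 14.6%, introns 40.2%, intergenic peaks 38.3% and exons 6.93%. The metastasis-shared peaks thus held a smaller share of promoters, 0.440% of all promoter peaks against 0.786% of all intronic peaks. They were also wider, with a median of 771 bp against 588 bp, and similar in GC content, at 45.3% against 45.8%. The floor of 40 is on counts not scaled by peak width, so the width gap is not independent of the rule. Position and width were not compared with peaks at 40 or more in both Liv and Lung. The median distance to a protein-coding start was 24593 bp against 26834 bp. A start lay within 100 kb of all but 160 (16.4%). By chromosome, 1.16% of peaks on chromosome 19 and 0.993% on chromosome 6 (0.801% without its distal region) were among them, 0.436% on chromosome X, and 0.712% over the genome.

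Among the 88 promoter peaks, the largest excess was at Ddo, which encodes D-aspartate oxidase, with means of 25.0 in Panc, 168 in Liv and 111 in Lung. The promoter peak with the highest counts, at Muc13, a transmembrane mucin, was at 573 in Panc, 2738 in Liv and 1390 in Lung. The promoter peaks named were chosen after their values were seen. Others were at Reg3g, a secreted antimicrobial lectin (29.2, 86.5 and 69.3 in Panc, Liv and Lung), Mmp7, the epithelial metalloprotease matrilysin (25.7, 96.5 and 59.5), Slco2a1, the prostaglandin transporter (153, 530 and 451), and Agr2, a disulfide isomerase of mucus-secreting cells (88.2, 187 and 248).

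Motif words were counted in the central 200 bp of every peak, on both strands and with overlaps between words allowed. Each share is given for the metastasis-shared peaks, then for all nuclear peaks, then for the 64210 peaks at 40 or more in both Liv and Lung, as the rule also asks. The AP-1 word (TGANTCA) was in 17.5% of the metastasis-shared peaks, in 28.1% of all peaks and in 20.9% of the peaks at 40 or more, so that the gap was smaller from the latter. The RUNX word was in 16.7%, 19.8% and 16.7%, with no gap from the peaks at 40 or more. The SMAD word (GTCTGG) was in 8.84%, 12.4% and 12.7%. Several words were more frequent in the metastasis-shared peaks than in either background. HNF4 (CAAAGTCCA) was in 2.26%, 0.794% and 0.685%, NF-kB (GGGANTTTC) in 3.08%, 1.16% and 1.09%, and HNF1 (GTTAATNAT) in 1.85%, 1.02% and 0.917%. These 3 rest on 22, 30 and 18 peaks. Also above both were FOX (TGTTTAC), in 7.91%, 4.41% and 3.81%, CEBP, in 13.5%, 9.62% and 8.72%, and GATA, in 16.2%, 11.8% and 10.3%. The same held for the KLF/SP, IRF, steroid receptor and SOX words below. ETS stood at 2.98%, 3.73% and 5.26%, TEAD (GGAATG) at 14.5%, 14.5% and 12.6%, ZEB/SNAI (CAGGTG) at 13.3%, 13.0% and 14.5%, and KLF/SP at 9.76%, 7.70% and 8.87%. IRF stood at 6.68%, 6.09% and 5.88%, steroid receptor (ACANNNTGT) at 7.91%, 6.83% and 5.93%, SOX (ACAATGG) at 3.80%, 2.85% and 2.43%, ONECUT (ATTGATT) at 3.08%, 3.42% and 2.65%, and CTCF (AGGTGGCAG) at 0.411%, 0.717% and 0.880%. No test was made of these shares.

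**Figure D2:**
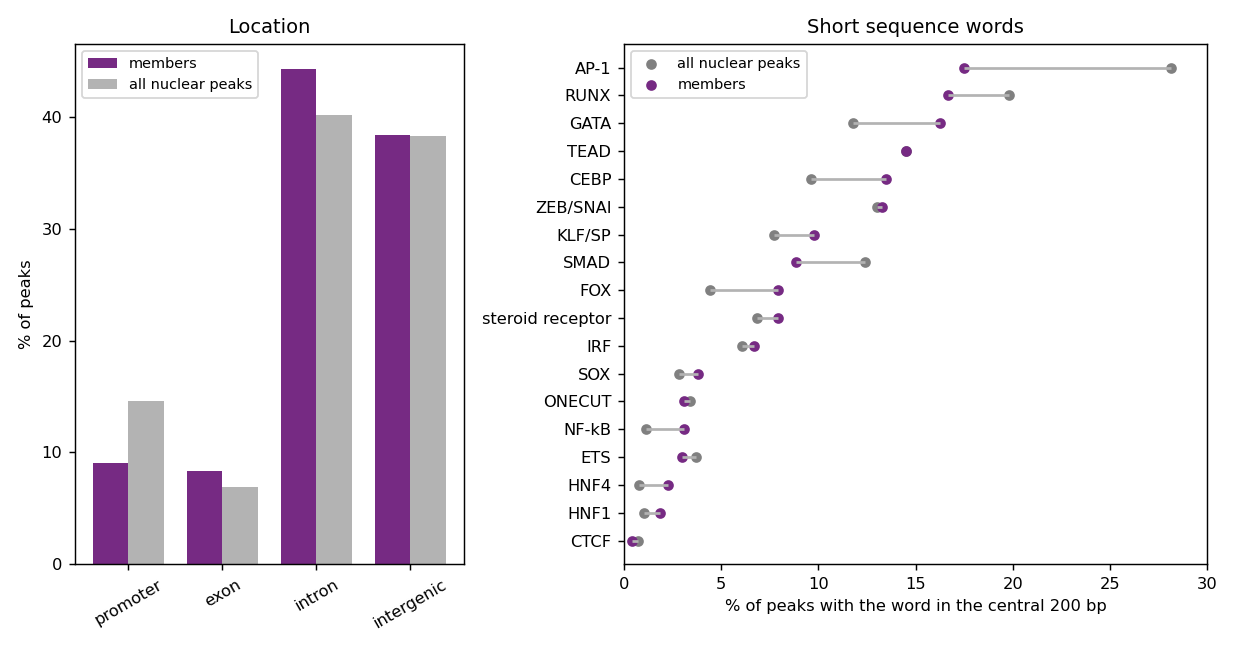
Left, share of peaks (y axis, %) by location for the 973 metastasis-shared peaks (purple) and all nuclear peaks (gray). Right, share of peaks (x axis, %) whose central 200 bp holds each motif word, for the same sets. AP-1 stands at 17.5% against 28.1%, and at 20.9% of the peaks at 40 or more in both metastatic sites, which are not drawn.

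Nearest starts gave 699 genes, of which 94 had 2 or more metastasis-shared peaks and 16 had 3 or more. A nearest gene is an annotation and was not shown to be the target. Cpe, the carboxypeptidase that matures prohormones, had the most, with 5 of its 23 peaks, all intronic and within 36.8 kb (chr8:64629225-64666007). Their means ran from 19.2 to 79.5 in Panc, 84.0 to 211 in Liv and 46.0 to 173 in Lung. Fam122a, a regulator of protein phosphatase 2A, had 4 of 13, and the strongest of them reached 693 in Panc, 1770 in Liv and 1400 in Lung. All 4 were intronic in an annotated transcript, which need not be that of Fam122a. Some lay in a run of 5 shared with Pip5k1b. Slco2a1 had 4 of 27, its promoter among them. Gm609 had 3 of 3, next to the peak assigned to Cd200. Trim71, an RNA-binding ubiquitin ligase known from stem cells, had 3 of 9, Agr2 and E030025P04Rik 3 of 14 each, and Ptprr, a receptor tyrosine phosphatase, 3 of 17. 13 genes had exactly 3, and these 5 were those with the largest share of their peaks. Runs of 3 or more with gaps of at most 50 kb numbered 16 and held 56 of the peaks. The longest had 6 over 135.9 kb at Cpm.

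Of 16 gene lists for pathways and factor families, 5 had no metastasis-shared peak: TGF-beta family ligands (0 of 122 assigned peaks), their receptors (0 of 131), RUNX factors (0 of 117), hypoxia response (0 of 217) and nuclear receptors (0 of 343). The nuclear receptor list left out Hnf4g, itself a nuclear receptor with 1 metastasis-shared peak, which was counted with the endoderm factors. Over the genome 0.712% of peaks were metastasis-shared, which is the share to read these small counts against, and no test was made of them. Smads and Smad regulators had 3 of 236 (Tgif1, a Smad corepressor, with 2, and Smad3, a TGF-beta effector, with 1) and TGF-beta target genes 3 of 193 (Tgfbi, a matrix protein, with 2, and Itgb6, an integrin subunit that activates TGF-beta, with 1). KLF factors had 3 of 210 (Klf5, Klf7 and Klf10 with 1 each) and AP-1 subunits 2 of 177 (Bach1 and Batf2). None of these 11 peaks was called for restoration in the pancreas or averaged over organs. Of all 973, 9.66% were called lower in the pancreas and 11.9% averaged over organs, so 0 of 11 does not show a lack of response. The Wnt list had 4 of 374, at Rnf43 (2), a ubiquitin ligase that removes Wnt receptors, Axin2, a feedback inhibitor, and Tcf7l2, a Wnt-responsive factor. Both Rnf43 peaks fell upon restoration in the pancreas, by 0.73 ± 0.20 and 1.09 ± 0.29 (log2, SE, limma adjusted p = 0.071 and 0.068), and 1 of them averaged over organs. NF-kB and inflammatory signals had 1 of 260, near the neutrophil chemokine Cxcl5, which fell in the pancreas by 0.93 ± 0.26 (limma adjusted p = 0.082). Interferon and antigen presentation had 1 of 123, near Irf2, which fell averaged over organs by 0.79 ± 0.21 (limma adjusted p = 0.036). Endoderm and pancreas factors had 2 of 253 (Gata4 and Hnf4g), YAP and TEAD pathway 2 of 205 (Tead4 and Vgll4), EMT factors and mesenchymal genes 1 of 205 (Twist2) and integrins and laminins 1 of 308 (Itgb6), none of them called. These counts too are to be read against the shares of all 973 given above.

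Markers of other cells showed what else the sorts could hold. None of the 8 marker lists had a metastasis-shared peak among the peaks assigned to its genes. Start-site peaks of the fibroblast and mural list (8 of 10 genes had one, none at 0) summed to 2570 to 3483 in Panc_OFF and 2403 to 4398 in Panc_ON, against 1171 to 1271 in Liv_OFF, 1334 to 1607 in Liv_ON, 1492 to 1894 in Lung_OFF and 1776 to 2105 in Lung_ON. Dcn, a matrix proteoglycan of fibroblasts, averaged 117 and 132 in Panc_OFF and Panc_ON against 15.7 to 18.4 in the metastasis groups. Fibroblast signal was thus highest where the metastasis-shared peaks were lowest, and its part in the organ difference was not tested. Leukocyte peaks (4 of 12 genes) summed to 452 to 691 in the pancreas and 758 to 1102 in the metastases. The 4 did not move together. Group means of Cd68 were 206 to 241 in Panc, 615 to 630 in Liv and 326 to 351 in Lung. Those of Laptm5 were 220 to 222, 171 to 208 and 354 to 384.5, and those of Coro1a 109 to 134, 117 to 131 and 139 to 145. Csf1r averaged 22.3 to 40.3 in Panc, 12.8 to 19.7 in Liv and 15.3 to 24.1 in Lung. Their part in the organ difference was not tested either. The defining leukocyte genes Ptprc and Spi1 had no start-site peak in the table. The hepatocyte list had a start-site peak for 1 of 10 genes (Ttr), at 20.5 to 96.5 in the pancreas, 164 to 242 in the liver and 52.5 to 96.7 in the lungs. Alveolar (6 of 12 genes, 1024 to 2466), acinar and islet (5 of 14, 1032 to 1992), endothelial (7 of 10, 741 to 1395) and mesothelial (2 of 5, 867 to 1542) sums were highest in Liv_OFF, Liv_OFF, Lung_OFF and Lung_ON. In bulk samples, fewer cells of a type and less accessibility per cell cannot be told apart.

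The response to Smad4 restoration was read organ by organ, with a peak called when its log2 fold change reached 0.58 in size and its limma adjusted p, over all nuclear peaks, was 0.1 or less. In the pancreas, 94 of the 973 metastasis-shared peaks fell and 0 rose. That is 9.66% lower, against a background of 3.06% of all nuclear peaks called lower and 0.364% called higher, and of 5.57% called lower among the 64210 peaks at 40 or more in both Liv and Lung. The median change of the 973 was −0.39 (log2), with 77.3% below 0, against 0.04 and 46.7% for all peaks. This result depends on which samples chose the list. Pancreas samples of both Smad4 states entered the rule. With the same rule on Smad4-off samples alone, 990 peaks were chosen, of which 18 (1.82%) were called lower and 3 higher, with a median change of 0.06. On Smad4-restored samples alone, 3073 peaks were chosen, of which 1161 (37.8%) were called lower and 0 higher, with a median of −0.78. The 2 lists shared 284 peaks, 28.7% of the first and 9.24% of the second. The share of pancreas calls among the metastasis-shared peaks is therefore not independent of how they were chosen.

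**Figure D3:**
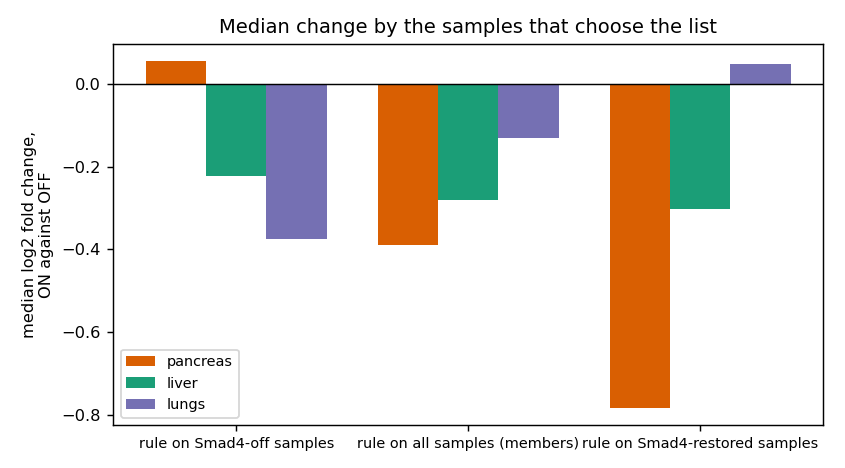
Median log2 fold change upon restoration (y axis) by organ for lists chosen by the same rule on Smad4-off samples, on all samples (the metastasis-shared peaks) and on Smad4-restored samples. The pancreas bar goes from 0.06 through −0.39 to −0.78, the lung bar from −0.37 through −0.13 to 0.05, and the liver bar stays between −0.22 and −0.30.

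The count in the pancreas also rested on few mice. It was 18, 11 and 31 without Panc_OFF_1, Panc_OFF_2 and Panc_OFF_3, and 22, 31 and 129 without Panc_ON_1, Panc_ON_2 and Panc_ON_3. It was 162 without Lung_OFF_1, which enters only through the shared spread. In the same fits, calls over all nuclear peaks went from 4675 to 1241, 453, 1694, 1686, 1840, 4878 and 8270. A replicate block for the lung samples alone gave 171 (8888 over all nuclear peaks), and one for every organ 143 (6448). The tumor epithelium sum given above also fell without overlap from Panc_OFF to Panc_ON, and its part in the calls was not tested. Of its genes, Sox9, Cldn4 and Grhl2 went the other way, by 0.14, 0.29 and 0.45 (log2), and were not called.

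The smallest p belonged to an intronic peak 13995 bp from the start of Rassf6, a Ras-association domain protein (chr5:90624756-90626492). It was at 259, 182 and 165 in Panc_OFF and at 62.2, 69.3 and 74.3 in Panc_ON, with no overlap. It was at 610 and 485 in Liv_OFF, 295 and 345 in Liv_ON, 420, 614 and 488 in Lung_OFF and 334, 343 and 496 in Lung_ON. The change was −1.52 ± 0.21 (log2, SE) in the pancreas (limma adjusted p = 0.0096), −0.77 ± 0.26 in the liver (adjusted p = 0.24) and −0.38 ± 0.21 in the lungs (adjusted p = 0.77). An intronic peak 3120 bp from the start of Bri3 (chr5:144247557-144248705) went from 290, 230 and 335 to 82.7, 60.7 and 44.5 in the pancreas. It was at 576 and 522 against 304 and 457 in the liver, and at 175, 522 and 442 against 250, 322 and 503 in the lungs. It fell by 2.20 ± 0.35 in the pancreas (limma adjusted p = 0.011), where OFF and ON did not overlap, with changes of −0.56 ± 0.43 in the liver and 0.00 ± 0.35 in the lungs. An intergenic peak with no gene within 100 kb (chr5:64391203-64392082) went from 210, 214 and 180 to 44.4, 50.8 and 59.8 in the pancreas, a fall of 1.95 ± 0.32 (limma adjusted p = 0.012).

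Among genes with several metastasis-shared peaks, 2 of the 3 at Trim71 fell in the pancreas, by 1.40 ± 0.28 and 0.89 ± 0.21 (limma adjusted p = 0.022 and 0.041), and 1 of 3 each at Agr2 and Gm609, by 1.40 ± 0.30 and 1.33 ± 0.35 (adjusted p = 0.031 and 0.062). At Cpe 1 of 5 fell, by 1.19 ± 0.35 (adjusted p = 0.098). None was called in the pancreas at Fam122a, Slco2a1, E030025P04Rik or Ptprr. None of the 10 peaks with the largest excess was called there either. These are small counts beside the 9.66% called lower among all 973. The share called lower was 22.0% of the 200 peaks with a pancreas mean of 100 or more, 9.24% from 40 to 100, 5.11% from 20 to 40 and 2.80% under 20. Among all nuclear peaks of those pancreas levels it was 4.61%, 3.50%, 2.16% and 0.625%, and among those at 40 or more in both metastatic sites 5.15%, 6.88%, 5.74% and 1.27%. These classes are cut on the pancreas mean that the rule used, so the shares are a description. By position, 11.4% of promoter, 12.3% of exonic, 9.98% of intronic and 8.31% of intergenic peaks were called lower. Among all peaks of those positions it was 2.74%, 4.68%, 3.05% and 2.90%. The shares by position also carry the dependence on the choosing samples given above.

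In the liver, 4 metastasis-shared peaks fell and 0 rose (0.411% lower, against 0.0886% of all nuclear peaks called lower and 0.462% called higher). OFF and ON did not overlap in the liver at any of the 4, which with 2 mice against 2 also held, with OFF the higher, at 22.9% of all nuclear peaks and, with OFF the lower, at 21.6%. The smallest p was at an intronic peak on chromosome 2 with no coding start within 100 kb (chr2:137794711-137795309), which was at 146 and 92.0 in Liv_OFF and 18.6 and 34.5 in Liv_ON, a fall of 2.14 ± 0.42 (limma adjusted p = 0.054). A peak in an intron near Btbd8 (chr5:107447448-107448725) went from 196 and 113 to 40.8 and 50.8, a fall of 1.69 ± 0.37 (adjusted p = 0.079). One near Ralgps1, an exchange factor for Ral (chr2:33360822-33361789), went from 216 and 194 to 38.4 and 43.7, a fall of 2.29 ± 0.51 (adjusted p = 0.087). The last was near Gm19935 (limma adjusted p = 0.096). The median change was −0.28, but it was −0.04 without Liv_ON_1 and −0.51 without Liv_ON_2, so that 1 library of 4 decided it. The count was 1 or 2 without 8 libraries of the other organs (each Panc_OFF sample, Panc_ON_1, Panc_ON_2 and each Lung_ON sample). It was 11 without Lung_OFF_2 and 17 without Lung_OFF_1. Calls over all nuclear peaks went from 752 to between 266 and 426 without those 8, and to 2370 and 2204 without Lung_OFF_2 and Lung_OFF_1.

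In the lungs, limma called 0 of the 973, against 0.00366% of all nuclear peaks in either direction. At an unadjusted p under 0.05 there were 72 (7.40%, against 7.11% of all peaks), and DESeq2 called 12 (1.23%, against 0.730% of all peaks) and edgeR 0. The median change was −0.13. With same-numbered lung samples treated as pairs, on their correlation only, 1 was called (41 of all nuclear peaks). A count of 1 was also reached without Lung_OFF_3 or Lung_ON_1 (25 and 22 of all nuclear peaks).

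**Figure D4:**
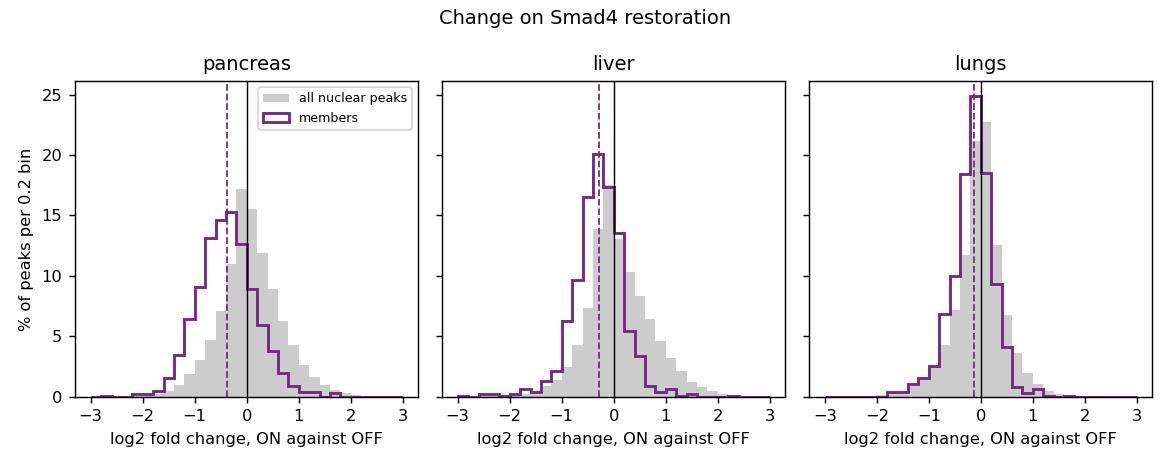
Distribution of the log2 fold change upon Smad4 restoration (x axis, values beyond 3 placed in the end bins) as the share of peaks per 0.2 bin (y axis), for all nuclear peaks (gray) and the metastasis-shared peaks (purple line; dashed, their median of −0.39, −0.28 and −0.13). Below 0 lie 77.3%, 75.2% and 66.1% of the metastasis-shared peaks.

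Averaged over the 3 organs, 116 metastasis-shared peaks fell and 4 rose, 11.9% and 0.411%, against 3.0% and 3.61% of all nuclear peaks and 3.57% lower among peaks at 40 or more in both metastatic sites. The median was −0.27 against 0.01. In the list chosen on Smad4-off samples, 77 of 990 fell and 3 rose, with a median of −0.19, beside organ medians of 0.06 (Panc), −0.22 (Liv) and −0.37 (Lung). In the list chosen on Smad4-restored samples, 511 of 3073 fell and 5 rose, with a median of −0.34. The average uses the samples that chose each list, so it is not independent of that choice either. The change was below 0 in all 3 organs at 447 peaks (45.9%, against 19.5% of all peaks) and above 0 in all 3 at 48 (4.93%, against 21.3%). The count was 202 without Lung_OFF_1, 80 without Lung_OFF_2 and 114 without distal chromosome 6. Calls over all nuclear peaks in these fits were 16283, 5313 and 9169, against 9043 in the main fit. The median of the 973 was −0.27 without Liv_OFF_1 and −0.19 without Liv_ON_1.

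The peak on chromosome 2 led this comparison too. In the pancreas it went from 54.7, 50.0 and 44.5 to 11.6, 13.6 and 19.2, and in the lungs from 62.6, 116 and 101 to 32.6, 42.2 and 57.9, so that OFF and ON were separate in every organ. Its mean change was −1.63 ± 0.21 (limma adjusted p = 0.0018). An intergenic peak near the predicted gene Gm19935 (chr8:90799073-90799995) went from 46.1, 52.7 and 57.4 to 6.22, 14.9 and 4.60 in the pancreas. It went from 239 and 142 to 36.1 and 25.4 in the liver, and from 46.9, 172 and 187 to 53.9, 31.6 and 60.7 in the lungs, where Lung_OFF_1 overlapped the ON samples. Its mean change was −2.15 ± 0.30 (adjusted p = 0.0029), and that of the Rassf6 peak was −0.89 ± 0.13 (adjusted p = 0.0036).

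Of the 4 peaks that rose, the one with the smallest p was near Tle4, a Groucho corepressor. This intergenic peak, 66517 bp from the gene's start (chr19:14664568-14665388), was at 44.4, 16.1 and 40.7 in Panc_OFF and 45.3, 32.2 and 83.5 in Panc_ON, 77.8 and 52.9 in Liv_OFF and 81.5 and 213 in Liv_ON, and 55.2, 85.9 and 65.5 in Lung_OFF and 129, 171 and 127 in Lung_ON. OFF and ON overlapped in the pancreas only, and the mean change was 0.91 ± 0.27 (limma adjusted p = 0.056). A peak in an intron near Foxo6, a forkhead factor (chr4:120271737-120272756), changed by 0.66 ± 0.21 (adjusted p = 0.072), with −0.25 in the pancreas and 1.78 in the lungs, where it was at 46.9, 80.4 and 65.5 in OFF and 126, 298 and 279 in ON. The others were an intergenic peak on chromosome 13 (chr13:51301381-51301812, 0.91 ± 0.30, adjusted p = 0.085) and a peak near Adh6b, an alcohol dehydrogenase (1.37 ± 0.46, adjusted p = 0.090).

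**Figure D5:**
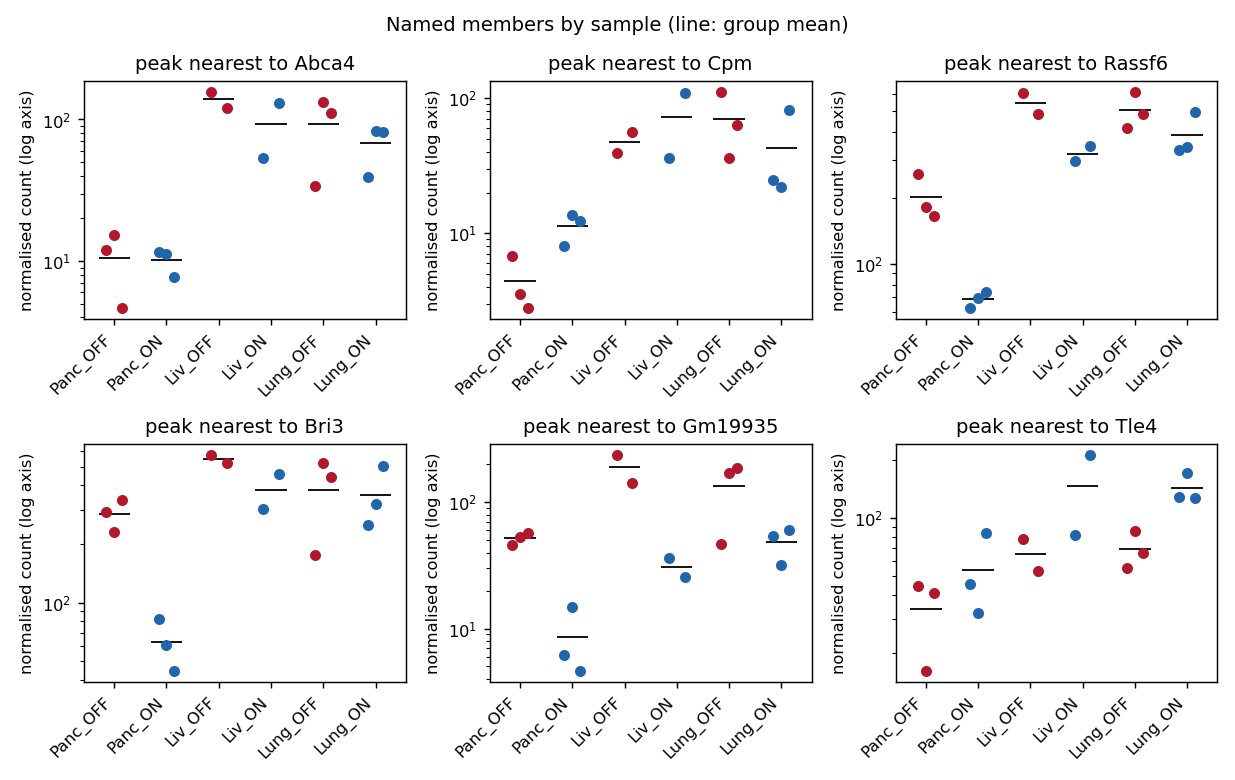
Normalised counts (y axis, log scale) of 6 metastasis-shared peaks in each sample, by group (x axis; red, Smad4 off; blue, Smad4 restored; line, group mean). Panc_ON lies below Panc_OFF without overlap at Rassf6, Bri3 and Gm19935, and Lung_ON above Lung_OFF at Tle4.

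The restoration change in the pancreas was also read by motif word. The 162 peaks with a RUNX word had a median of −0.39 and those without one −0.39, and GATA gave −0.41 with (158 peaks) and −0.38 without. The 170 peaks with an AP-1 word had a median of −0.14, against −0.43 without one and 0.27 over all nuclear peaks with the word. HNF1 gave −0.85 with (18 peaks) and −0.38 without, and SMAD −0.35 with (86 peaks) and −0.40 without. With an AP-1 word 4 were called lower (2.35%), against 1.11% of all nuclear peaks with that word and 2.83% of those at 40 or more in both metastatic sites. With a GATA word 23 were called (14.6%, against 3.53% and 7.07%), with an HNF1 word 3 (16.7%, against 6.97% and 12.9%), and with a SMAD word 5 (5.81%, against 3.17% and 5.67%). These shares carry the dependence on the choosing samples given above. No test was made between these classes.

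Whether restoration acted differently between organs was tested directly. By limma, 0 of the 973 peaks, and 0% of all nuclear peaks, were called for lungs minus pancreas, liver minus pancreas or liver minus lungs. At an unadjusted p under 0.05 there were 139 (14.3%), 18 (1.85%) and 16 (1.64%), against 11.0%, 3.95% and 5.25% of all nuclear peaks. For lungs minus pancreas, DESeq2 called 27 (2.77%, against 1.65% of all nuclear peaks), a replicate block in every organ 4 (0.411%, against 0.182%), a block in the lungs only 25 (2.57%, against 1.75%) and limma without Lung_OFF_2 41 (4.21%, against 2.93%), while edgeR called 0. The calls made in the pancreas and not in the lungs therefore do not by themselves show that the organs differed.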

How the data were processed

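Each deposited value is a signal, namely the normalised read count of 1 peak in 1 sample. Per the study's methods and the submitters' processing notes, the authors checked reads with FastQC 0.11.5, trimmed them and used Bowtie2 for alignment to mm10, with MACS2 peaks joined over gaps of up to 500 bp into 1 atlas, featureCounts for the counts and DESeq2 for size factors. Removal of duplicates and the shift of read ends for the transposase are not given in the sources used here. Any duplicates kept would understate counting error. Size factors take most peaks as unchanged. Depth was 23.0 M to 38.2 M reads in peaks, recovered as whole multiples of 1 read for 100% of values (tolerance 0.01 reads). The mitochondrial row (1.43% to 3.56% of reads) was left out of the tests.

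Part of the genotype shared by all groups is not reported here. Groups came from the sample titles, and column names give doxycycline status. The lung columns carry day 15 in their names, against 14 days in the labels. Starts in the table count from 0 and are printed from 1. Genes are GENCODE vM21 basic, and a peak took the nearest protein-coding start within 100 kb. Promoter peaks lay within 1000 bp of any transcript start. Other peaks were exonic, then intronic, then intergenic, by overlap with a transcript of any gene, not only the nearest. Sequence is RefSeq GRCm38.p6, the build of the files.

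Restoration was tested with limma 3.58.1 (R 4.3.3; mean-variance trend, robust) on log2(normalised count + 1), with 6 group means and no filter on low values. Changes of low peaks are understated on this scale. The Benjamini-Hochberg adjustment covered every nuclear peak, and calls required 0.58 in absolute log2 change with an adjusted p no larger than 0.1. Organ levels were used to choose the peaks and were not tested. Each sample is 1 mouse, and p-values measure the spread between mice of a group. The fit was tested on simulated data for restoration in the pancreas. It recovered 24 of 100 peaks changed 2-fold and 67 of 100 changed 4-fold, with 13 false calls among 136630 peaks. Most 2-fold changes were thus missed, so few or no calls in a comparison do not show that peaks were unchanged. These recovery values are for the pancreas only.

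Named peaks were the 10 with the largest ratio of the smaller metastasis mean to the pancreas mean, for each restoration comparison the 3 calls with the lowest p in either direction whose OFF and ON samples did not overlap (not required for the average), the 8 genes with most peaks, 2 peaks on each side of the 2-fold limit, and counts for 16 gene lists and 8 marker lists with the 2 leading genes of each of the former. The peaks, lists and motif words were chosen with earlier results of these data known. Ties among genes were broken after the values were seen.

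Alternatives were a pseudocount of 10, a mean of at least 20, TMM factors, quantile normalisation, stricter thresholds (1 and 0.05), recovered reads in edgeR 4.0.16 and in DESeq2 1.42.0, only the groups compared, replicate blocks, removal of the GC trend, and leaving out each sample. Lists chosen on 1 Smad4 state and a fit without distal chromosome 6 were added after seeing the data. Replicate numbers recur across groups. Departures of same-numbered samples from their group means correlated at 0.491, 0.124 and 0.214 for the 3 lung pairs. For the pancreas pairs it was −0.33, 0.03 and −0.33, and for the liver pairs 0.08. Differently numbered samples reached 0.184 in the lungs (Lung_OFF_2 with Lung_ON_3) and 0.363 in the pancreas (Panc_OFF_3 with Panc_ON_1). Only the first lung pair exceeded both. The main fit paired no samples. Lung samples were treated as pairs only in the fits with a replicate block, on statistical grounds only, and the pairing is uncertain.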

Additional observations from a re-analysis of the deposited data

How the results depend on the processing

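Calls over all nuclear peaks follow in brackets. For the metastasis-shared peaks, the number called in the pancreas was 94 (4675), and 32 (1514) with thresholds of 1 and 0.05, 155 (8235) with quantile normalisation, 164 (9294) with DESeq2, 143 (6448) with a replicate block in every organ, 171 (8888) with a replicate block in the lungs only, and 11 to 162 (453 to 8270) leaving out 1 Panc or Lung sample. In lists chosen on Smad4-off or Smad4-restored samples only it was 21 and 1161, and the median change went from −0.39 to 0.055 (reversed) and −0.78. The number called in the liver was 4 (752). It was 0 (146) with the stricter thresholds, 0 (314) with quantile normalisation and 1 (192) with edgeR. With a replicate block in every organ it was 2 (361), and 2 (213) with the GC trend also removed. It was 19 (2005) with the block in the lungs only and 27 (3186) with DESeq2. It was 1 to 17 (266 to 2370) leaving out 1 Panc or Lung sample. In the lungs it was 0 (5), and 1 (41) with a replicate block for the lungs, 12 (997) with DESeq2, and 0 to 1 leaving out 1 Panc or Lung sample. Averaged over organs it was 120, and 21 with the stricter thresholds, 516 in the list chosen on Smad4-restored samples, and 51 to 202 leaving out 1 sample. For lungs minus pancreas it was 0 (0), and 4 (248) with a block in every organ, 25 (2385) with a lung block, 27 (2250) with DESeq2, and 0 to 41 (0 to 4000) leaving out 1 Panc or Lung sample. Leaving out 1 sample moved the medians between −0.55 and −0.27 (pancreas), −0.51 and −0.038 (liver), −0.29 and −0.00 (lungs) and −0.35 and −0.19 (average). The lung median was 0.049 (reversed) in the list chosen on Smad4-restored samples. The number of peaks meeting the rule was 973, and 91 at a ratio of 3, 3073 on Smad4-restored samples only, 1531 with quantile normalisation, and 713 to 1365 leaving out 1 sample. The promoter share was 9.04%, and 7.09% at 500 bp and 13.6% at 2000 bp. The causes were not tested. Of 342 alternatives for 12 named restoration results, 274 kept direction and call, 68 kept direction only and 0 reversed. These 12 were picked by p from the same samples. Leaving out a sample of another organ cannot alter a change within 1 organ, so the 0 is no independent check.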

Other observations

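Of the metastasis-shared peaks, 10 promoter peaks were called lower upon Smad4 restoration in the pancreas, 11.4% of the 88 against 2.74% of all promoter peaks. Among peaks of any position at 40 or more in both Liv and Lung it was 5.57%. Because Panc_ON samples helped to choose the peaks, the share is not independent of that choice. OFF and ON did not overlap in the pancreas at any of the 10, as was so at 13.3% of all nuclear peaks with OFF the higher and 12.2% with OFF the lower. They are named after their values were seen. Peaks at the coding starts of Tm6sf2, a lipid-metabolism membrane protein, and Gsdme, a pore-forming gasdermin, fell by 0.96 ± 0.18 and 1.35 ± 0.32 (log2, SE, limma adjusted p = 0.020 and 0.045). That at Hpgds, a prostaglandin D synthase, fell by 1.10 ± 0.32 (adjusted p = 0.094). A promoter peak 3621 bp from the coding start of Spink4, a protease inhibitor of mucus-secreting cells, fell by 1.28 ± 0.28 (adjusted p = 0.031). The other six were nearest to Ccdc33, Svs1, Anxa11, Add3, Tbc1d2b and Tbc1d30. Distal peaks that fell in the pancreas included those nearest to Ihh, a Hedgehog ligand (1.44 ± 0.30, limma adjusted p = 0.026), and to the plasma protein genes Ambp and Lbp (1.40 ± 0.25 and 1.40 ± 0.30, adjusted p = 0.017 and 0.031). None of these results was called in the liver or in the lungs.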
